A study of Homo sapiens with 6 samples.

Results

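MaLR elements (mammalian apparent LTR retrotransposons) are old, immobile relics of retroviruses of the ERVL class, and 48 of the 1047 sequences quantified in the study carry their names. The members were chosen by name: every sequence whose name starts with MLT1 (34 names), MST (8) or THE1 (5), and MLT-int (1). A MaLR element has a long terminal repeat (LTR) at each end and an internal part between them, and 41 of the names are LTRs and 7 are internal parts. MLT1 is the oldest of the families and is shared widely among mammals, MST is younger, and THE1 is the youngest and is specific to primates.

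The internal part of a MaLR element does not encode a reverse transcriptase of its own, so the elements are thought to have copied themselves with enzymes of related viruses. Recombination between the LTRs of a copy often leaves a single, solo LTR in the genome. LTRs carry promoter and polyadenylation signals. Some THE1B LTRs are known to act as regulatory sequences of host genes, for CRH in the primate placenta and for CSF1R in Hodgkin lymphoma cells. The RNA exosome is the nuclease complex that removes many short-lived noncoding transcripts in the nucleus, working inward from the 3′ end.

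RNA was measured in 6 libraries of H1, an established line of human embryonic stem cells used here between passages 40 and 60. All cells, controls included, carried a hairpin RNA against the exosome subunit EXOSC3, which doxycycline (dox) switches on. The groups were EXOSC3r cells with dox (2 clones with a hairpin-resistant EXOSC3 transgene), EXOSC3r cells without dox (the same 2 clones), PB cells with dox (1 library of cells with the empty vector) and PB cells without dox (1 library). Total RNA was sequenced by strand after removal of ribosomal RNA. There was no line without the hairpin, so dox itself and the hairpin cannot be told apart, and PB cells had no replicate in either state.

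Between 3745262 and 5260196 estimated counts were assigned per library to the 1047 sequences, which is not the sequencing depth. The Alu sequence took 33.0% to 52.5% of them, with the highest shares in clone 1. The sequences are 1045 repeat names, ACTB and GAPDH, so EXOSC3 and the gene markers of pluripotent cells are not among them. Neither the knockdown nor its rescue could be checked from these counts. Of the pluripotency-linked retroviral sequences, HERVH stood between 20520 and 35679 CPM in the 6 libraries. CPM here means counts relative to library size after TMM scaling, which sets libraries to a common size by the middle of their count ratios. No consensus sequence of a MaLR element was used here, and a consensus stands for many genomic copies, so the names have no position in the genome.

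RNA was assigned to 45 of the 48 MaLR names, and 42 reached at least 10 counts in a library and were tested. MLT1L, MLT1N2 and MLT1O were listed at 0 in every library. A count of 0 allows up to 3 counts per library, or 0.57 to 0.801 CPM before scaling. MLT1M and MLT1G were also too low to test, as was MLT1J-int, an internal part with 4 and 6 counts in clone 1 with and without dox, 0 and 3 in clone 2, and 2 and 7 in PB cells. All 6 names left out belong to MLT1, whereas all 8 MST and all 5 THE1 names were tested.

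Together the 48 names held 28002 CPM with dox and 28723 CPM without in clone 1, 28299 and 28384 CPM in clone 2, and 28081 and 29115 CPM in PB cells. The coefficient of variation over the 6 libraries was 1.48%. In bulk RNA, fewer cells of a type and less RNA per cell cannot be told apart. As a share of assigned counts they held 2.083% with dox and 2.509% without in clone 1 (95% Clopper-Pearson intervals 2.07 to 2.095 and 2.495 to 2.524), 3.102% and 2.88% in clone 2 (3.085 to 3.12 and 2.863 to 2.896), and 3.406% and 3.321% in PB cells (3.389 to 3.423 and 3.304 to 3.338). The intervals cover counting error only. The shares were lowest in clone 1, where the Alu share was highest at 52.5% with dox and 45.4% without, and the part of Alu in them was not tested.

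THE1, the youngest family, supplied 73.0% ± 0.3 of the MaLR CPM (SD, n = 6 libraries), MST 19.4% ± 0.28 and MLT1 7.27% ± 0.12, although MLT1 has the most names. Per kilobase of effective length (the length that a fragment can start in, as deposited) the order was the same. THE1B, the most abundant LTR, stood at 15506 ± 387 CPM per kb (SD, n = 6), MSTA, the most abundant MST LTR, at 9009 ± 235 and MLT1B, the most abundant MLT1 LTR, at 1747 ± 59.1 CPM per kb. THE1B was 1.72 ± 0.049 times as abundant as MSTA and 8.88 ± 0.39 times as abundant as MLT1B per length. The internal parts differed more: THE1_I was 8.88 ± 0.23 times as abundant per length as MST_I and 142 ± 8.1 times as abundant as MLT1_I. The number of genomic copies and their distance from the consensus were not analysed here, so RNA per copy was not measured.

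**Figure D1:**
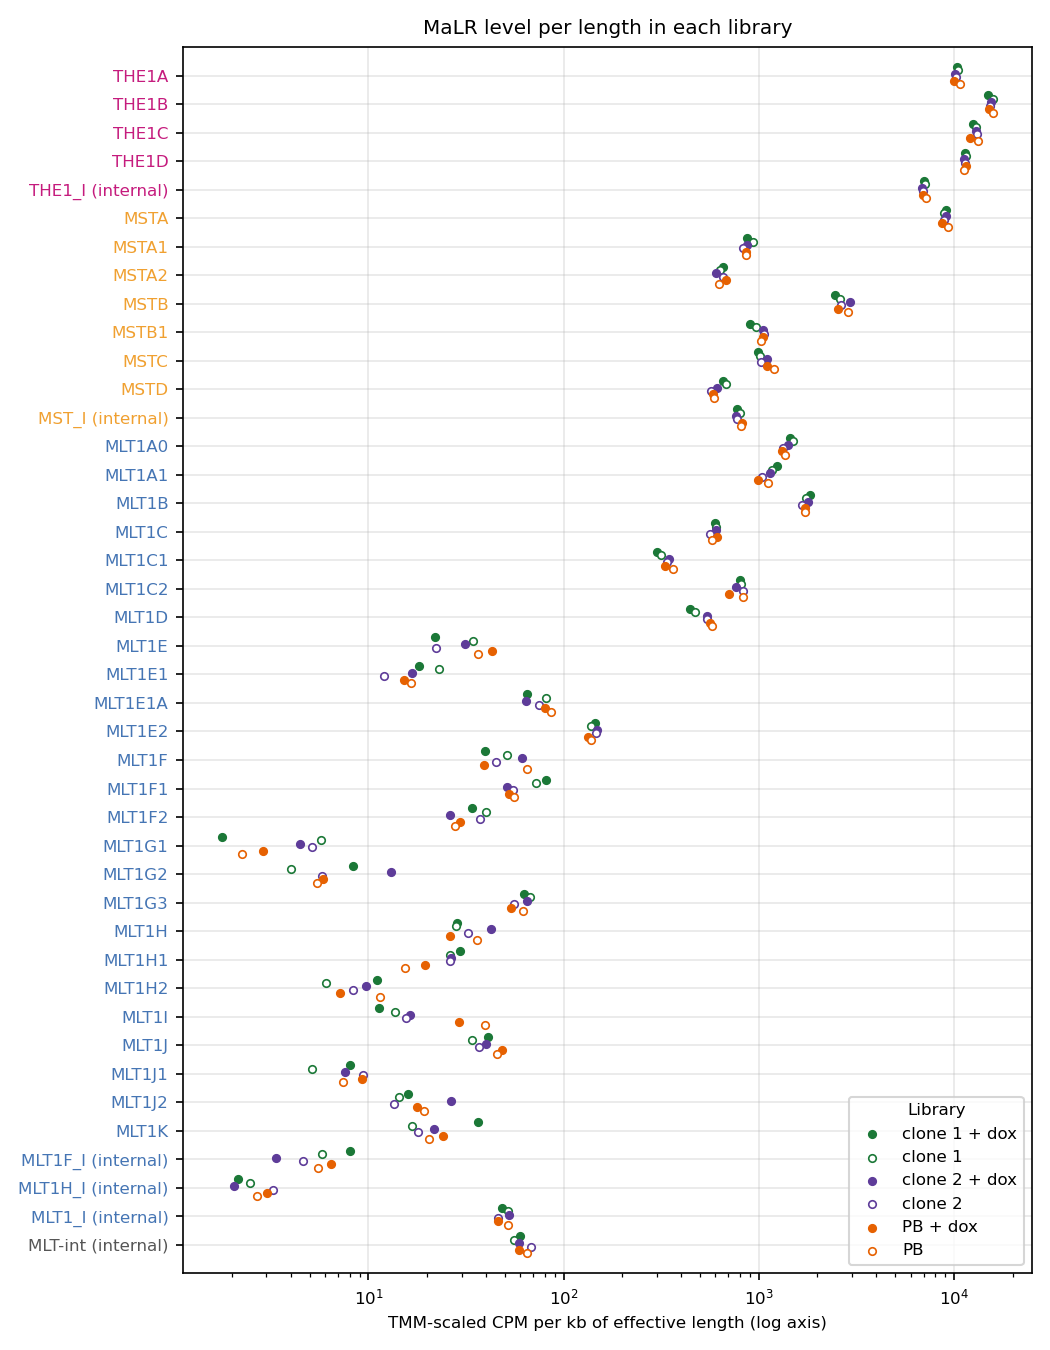
TMM-scaled CPM per kilobase of effective length (log axis) of the 42 tested MaLR sequences, with 1 point per library, filled with dox and open without, and names coloured by family. The 4 THE1 LTRs sit highest, at 10346 to 15506 CPM per kb on average, MSTA (9009) lies above THE1_I (7020), and MLT1 names reach from 1747 CPM per kb (MLT1B) to 2.59 CPM per kb (MLT1H_I).

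Among the THE1 LTRs, THE1A is the youngest subfamily and THE1D the oldest, and the level did not follow that order. THE1B was highest, followed by THE1C at 12853 ± 438, THE1D at 11436 ± 145 and THE1A at 10346 ± 257 CPM per kb, and no neighbours in this order overlapped in any library. Estimated counts divide reads between related names in every library, so the lack of overlap does not secure the order. THE1B held 3116 CPM with dox and 3339 without in clone 1, 3272 and 3252 in clone 2, and 3228 and 3347 in PB cells. THE1C held 2726 and 2870 CPM in clone 1, 2854 and 2923 in clone 2, and 2702 and 2938 in PB cells, again with dox before without. It was lower with dox in each line, by little. THE1D held 2552 and 2617 CPM in clone 1, 2542 and 2619 in clone 2, and 2645 and 2556 in PB cells, so its PB library with dox was the highest of the 6.

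MSTA dominated the MST LTRs. It held 2439 CPM with dox and 2405 without in clone 1, 2479 and 2456 in clone 2, and 2369 and 2530 in PB cells, where the library with dox was the lowest of the 6 and the one without the highest. MSTB was second in level per length, at 2680 ± 190 CPM per kb, and the other 5 MST LTRs lay between 615 (MSTD) and 1072 CPM per kb (MSTC). MSTB held 655 and 698 CPM in clone 1, 793 and 722 in clone 2, and 695 and 774 in PB cells, with the dox library below the other in clone 1 and PB cells and above it in clone 2. MSTA, MSTA1 and MSTA2, and MSTB and MSTB1, are related names, between which estimation can divide shared reads. How far they share reads was not examined. The sums depend less on such a division than the single names.

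The level of the MLT1 LTRs was lower in the letters from E on than in A to D, and later letters broadly mark older subfamilies. The 7 names MLT1A0 to MLT1D held 86.2% ± 0.23 of the CPM of all 30 MLT1 LTR names (SD, n = 6). Summed per kilobase, the 2 MLT1A names held 2512 ± 151, MLT1B 1747 ± 59.1, the 3 MLT1C names 1714 ± 40.5 and MLT1D 523 ± 52.5 CPM per kb. The 4 MLT1E names together held 265 ± 11.6, the 3 MLT1F names 144 ± 14.8 and the 4 MLT1G names 71.9 ± 7.42 CPM per kb. The sums for H to K lay between 20.9 (MLT1I) and 66.8 CPM per kb (MLT1J names), and L to O were at or near 0. These sums cover unequal numbers of names. Averaged per name, MLT1A stood at 1256 CPM per kb, below MLT1B at 1747, and MLT1E at 66.3. From G to K the averages per name did not fall, at 18 (MLT1G) to 22.9 (MLT1K). The order is a description across subfamilies, which differ in copies and in distance from the consensus.

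Of the leading MLT1 LTRs, MLT1B held 424 CPM with dox and 409 without in clone 1, 420 and 394 in clone 2, and 409 and 407 in PB cells. MLT1A0 held 313 and 327 CPM in clone 1, 309 and 297 in clone 2, and 293 and 299 in PB cells. MLT1A1 held 312 and 296 CPM in clone 1, 290 and 267 in clone 2, and 254 and 284 in PB cells. MLT1B was slightly higher with dox in each line, while MLT1A1 was higher with dox in both clones and lower in PB cells.

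The internal parts were less abundant per length than the summed LTRs and than the most abundant LTR name in every family, and by more in older families. Not every single LTR name lay above them: all 4 THE1 LTRs were above THE1_I, but 2 of 7 MST LTRs (MSTA2 at 642 and MSTD at 615 CPM per kb) were below MST_I at 791, and 13 of the 25 tested MLT1 LTRs were below MLT1_I at 49.5 CPM per kb. The summed THE1 LTRs stood at 50140 ± 931 CPM per kb and THE1_I at 7020 ± 123, a ratio of 7.14 ± 0.097 (SD, n = 6). The ratio was 20.1 ± 0.79 for MST (15899 ± 410 against 791 ± 22.3 CPM per kb) and 123 ± 3.8 for MLT1 (7154 ± 196 against 58.4 ± 2.93 CPM per kb). These ratios set sums over several LTR names against fewer internal names, and solo LTRs add LTR copies. Genomic copies were not counted, so the ratios do not compare RNA per copy. MLT-int, whose name gives no subfamily, was not counted with MLT1. It stood at 61.2 ± 4.57 CPM per kb, above the summed MLT1 internal names, so the MLT1 ratios would be much smaller with it. Of the single LTR names, THE1B was 2.21 ± 0.044 times as abundant as THE1_I per effective length, MSTA 11.4 ± 0.49 times as abundant as MST_I, and MLT1B 35.4 ± 2.1 times as abundant as MLT1_I. The effective length is much shorter than the full length for short sequences such as LTRs: with the deposited full length, the family ratios were 4.62, 14.1 and 87.9, in the same order. For THE1A against THE1_I the choice turned the direction, from 1.47 ± 0.018 with effective to 0.931 ± 0.013 with full length.

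THE1_I, the internal part of THE1 and the most abundant MaLR name by count, held 10004 CPM with dox and 10144 without in clone 1, 9801 and 9845 in clone 2, and 9861 and 10188 in PB cells. MST_I held 1148 and 1192 CPM in clone 1, 1146 and 1159 in clone 2, and 1226 and 1211 in PB cells, so that all 4 EXOSC3r libraries lay below both PB libraries. Both internal parts spanned a narrow range, with coefficients of variation of 1.65% and 2.88%. The internal parts named for MLT1 were far lower. MLT1_I held 58.3 and 63.4 CPM in clone 1, 64.1 and 56.3 in clone 2, and 56 and 63.4 in PB cells. MLT-int, whose name gives no subfamily, held 94.3 and 87.5 CPM in clone 1, 93.3 and 108 in clone 2, and 93.5 and 102 in PB cells. Neither separated dox from no-dox libraries. MLT1F_I held 9.97 and 7.18 CPM in clone 1, 4.14 and 5.75 in clone 2, and 7.95 and 6.83 in PB cells. MLT1H_I held 2.81 and 3.22 CPM in clone 1, 2.68 and 4.25 in clone 2, and 3.97 and 3.51 in PB cells, on 11 to 22 counts.

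**Figure D2:**
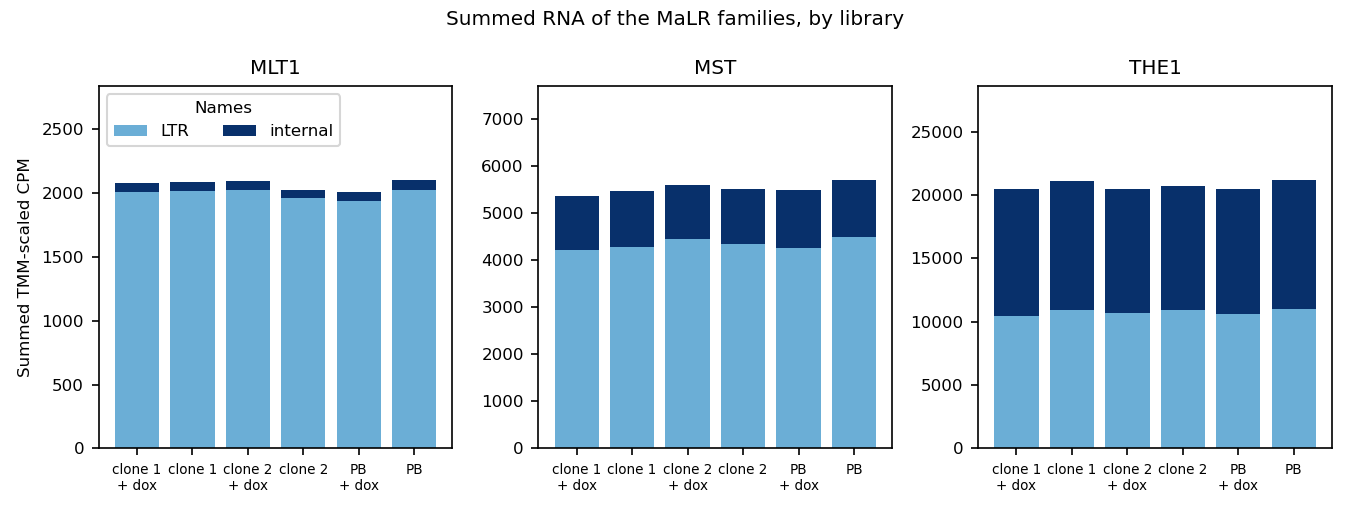
Summed TMM-scaled CPM of the LTR names (light) and internal names (dark) of MLT1, MST and THE1 in each library, with dox left of no dox. The bars of a family are nearly level, from 2009 to 2103 CPM for MLT1, from 5369 to 5713 for MST and from 20462 to 21196 for THE1.

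In EXOSC3r cells, no MaLR sequence passed the test of the change with dox. None of the 42 tested members passed in either direction (edgeR quasi-likelihood test, Benjamini-Hochberg adjusted over all 699 tested sequences at 0.05), against 0.143% of all sequences higher and 0% lower. None had an unadjusted p under 0.05, against 3.15% of all sequences, and DESeq2 and limma called none either. The members' median log2 change was 0.00, with 21 above and 21 below 0, and that of all sequences was 0.01. By family the median was 0.03 for MLT1 (28 tested), -0.01 for MST (8) and -0.04 for THE1 (5), with changes of -0.78 to 1.11, -0.07 to 0.03 and -0.05 to -0.01.

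For the abundant members this is a bounded result relative to the TMM scaling only. A change shared by most sequences would be scaled away. As a share of assigned counts, the MaLR total was 2.083% with dox and 2.509% without in clone 1. In clone 2 it was 3.102% and 2.88%. Of the 20 members with a mean of at least 100 CPM, all had 95% intervals of the EXOSC3r dox change within 0.773-fold to 1.23-fold. THE1_I had a log2 change of -0.01 ± 0.076 (SE, interval -0.2 to 0.17), THE1B of -0.05 ± 0.069 (-0.21 to 0.12), MST_I of -0.04 ± 0.063 (-0.19 to 0.12), MSTA of 0.02 ± 0.065 (-0.14 to 0.17) and MLT1B of 0.07 ± 0.065 (-0.08 to 0.23). In simulated counts for the 699 sequences, this comparison recovered 83.6% of those given a log2 change of 1 and 40.3% of those given 0.5, at all levels of abundance together. The simulation gave a change of 0.5 or 1 to 67 sequences each and of 2 to 66, and called 149, against 1 in the data. With fewer changed sequences the adjusted threshold is stricter, and no lasting difference between clones was simulated. These shares need not hold for the data.

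The members with the smallest p in EXOSC3r cells were low MLT1 LTRs. MLT1G2 held 3.58 CPM with dox and 1.73 without in clone 1, 5.6 and 2.5 in clone 2, and 2.53 and 2.34 in PB cells, on 7.06 to 23.2 counts. It was higher with dox in both clones (log2 1.11 ± 0.51, edgeR adjusted p = 1.00). MLT1K held 15.6 and 7.18 CPM in clone 1, 9.26 and 7.75 in clone 2, and 10.5 and 8.78 in PB cells, and the clone 1 library with dox lay above all others (log2 0.73 ± 0.34, edgeR adjusted p = 1.00). MLT1E1A held 34.8 and 43.6 CPM in clone 1, 34.6 and 40.5 in clone 2, and 43.5 and 46.2 in PB cells (log2 -0.28 ± 0.15, edgeR adjusted p = 1.00). MLT1F2 held 12.3 and 14.6 CPM in clone 1, 9.5 and 13.8 in clone 2, and 10.8 and 10.1 in PB cells. MLT1J2 held 4.6 and 4.21 CPM in clone 1, 7.79 and 4 in clone 2, and 5.24 and 5.66 in PB cells, with the clone 2 library with dox apart from the rest. Its change was 0.59 ± 0.42 and that of MLT1F2 was -0.38 ± 0.26 on the log2 scale, with an adjusted p of 1.00 by edgeR for both.

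In PB cells, which carry the empty vector and in which the knockdown was not checked, no MaLR sequence passed the test of the change with dox either. None of the 42 members was called (edgeR), against 0.858% of all sequences higher and 0% lower. None had an unadjusted p under 0.05, against 4.01% of all sequences, and DESeq2 and limma called none. The members' median log2 change was -0.04, with 17 above and 25 below 0, and that of all sequences was 0.00. The family medians were -0.03 for MLT1, 0.00 for MST and -0.05 for THE1, with changes of -0.71 to 0.36, -0.16 to 0.13 and -0.12 to 0.05. LTR names had a median of -0.05 (36 tested) and internal names of -0.01 (6 tested). Each lone PB library was assumed to vary like a clone.

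The intervals were wider than in EXOSC3r cells. All 20 members above 100 CPM had 95% intervals within 0.702-fold to 1.34-fold, again relative to the TMM scaling only. THE1_I had a log2 change of -0.05 ± 0.11 (SE, interval -0.31 to 0.21), THE1B of -0.05 ± 0.098 (-0.29 to 0.18), MST_I of 0.02 ± 0.088 (-0.2 to 0.23), MSTA of -0.09 ± 0.092 (-0.32 to 0.13) and MLT1B of 0.01 ± 0.09 (-0.21 to 0.23). In the simulation the PB comparison recovered 65.7% of sequences given a log2 change of 1 and 29.9% of those given 0.5, under the same limits. For members below 10 CPM the interval was wide, for MLT1G1 from -2.06 to 2.79 around 0.36.

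**Figure D3:**
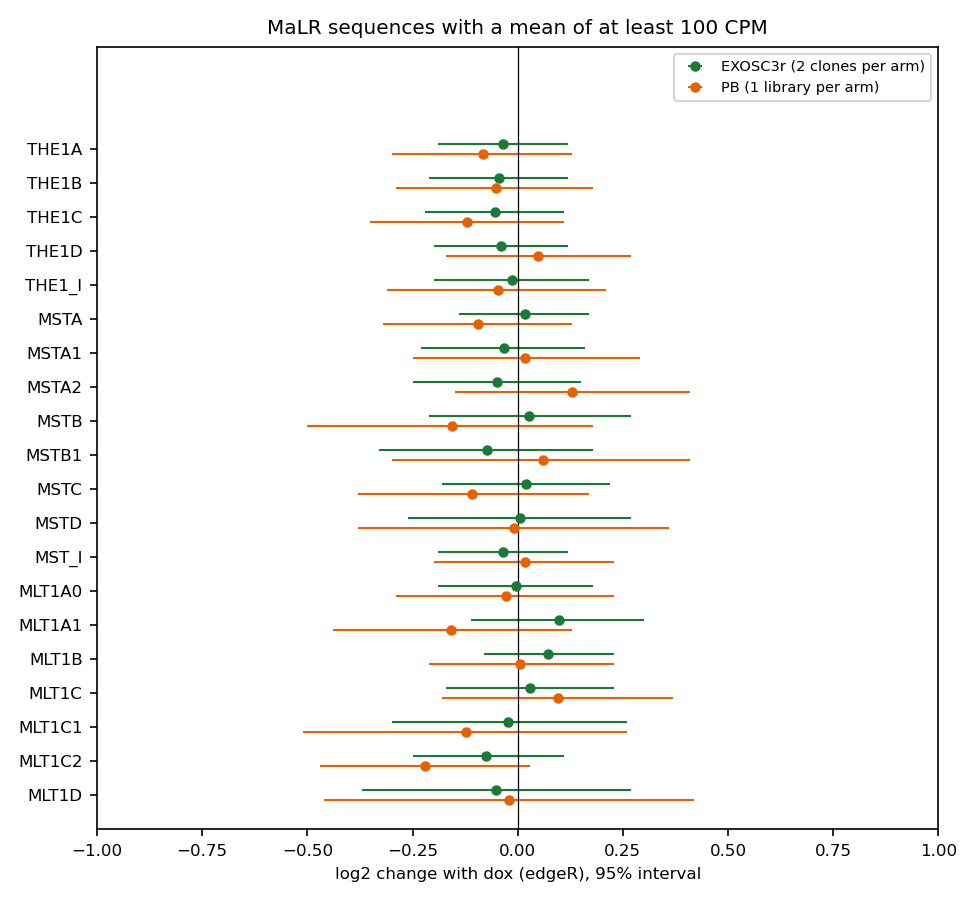
Log2 change with dox of the 20 MaLR members with a mean of at least 100 CPM, with 95% intervals from the edgeR fit, for EXOSC3r cells (green, 2 clones per arm) and PB cells (orange, 1 library per arm). Every interval drawn includes 0, and the bounds lie between -0.51 and 0.42.

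The members with the smallest p in PB cells were MLT1C2, MLT1F, MLT1A1, THE1C and MLT1H. MLT1C2 held 242 CPM with dox and 245 without in clone 1, 231 and 253 in clone 2, and 215 and 251 in PB cells, and its PB library with dox was the lowest of the 6 (log2 in PB cells -0.22 ± 0.104, edgeR adjusted p = 1.00). MLT1F held 15.1 and 19.6 CPM in clone 1, 23.4 and 17.5 in clone 2, and 15.2 and 24.8 in PB cells (log2 in PB cells -0.71 ± 0.36, edgeR adjusted p = 1.00). MLT1H held 11 and 10.9 CPM in clone 1, 16.6 and 12.8 in clone 2, and 10.3 and 14 in PB cells (log2 in PB cells -0.45 ± 0.4, edgeR adjusted p = 1.00). For MLT1F the EXOSC3r libraries spanned 15.1 to 23.4 CPM and for MLT1H 10.9 to 16.6 CPM, a width near that of the PB difference. For MLT1A1 the PB change was -0.16 ± 0.118 and for THE1C -0.12 ± 0.096 on the log2 scale (edgeR adjusted p = 1.00 for both).

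Line by line, 4 of the 42 members were higher with dox in all 3 lines (MLT1B, MLT1G2, MLT1J and MLT1K), against 16.6% of all sequences, and 6 were lower in all 3 (MLT1C2, MLT1D, MLT1E1A, THE1A, THE1C and THE1_I), against 15.9%. Neither count stands above its background. The THE1 sum had dox over no-dox ratios of 0.971 in clone 1, 0.989 in clone 2 and 0.966 in PB cells. The MST sum had ratios of 0.981, 1.02 and 0.962, and the MLT1 sum of 0.994, 1.03 and 0.955, in the same order. A sum over the members has no test.

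**Figure D4:**
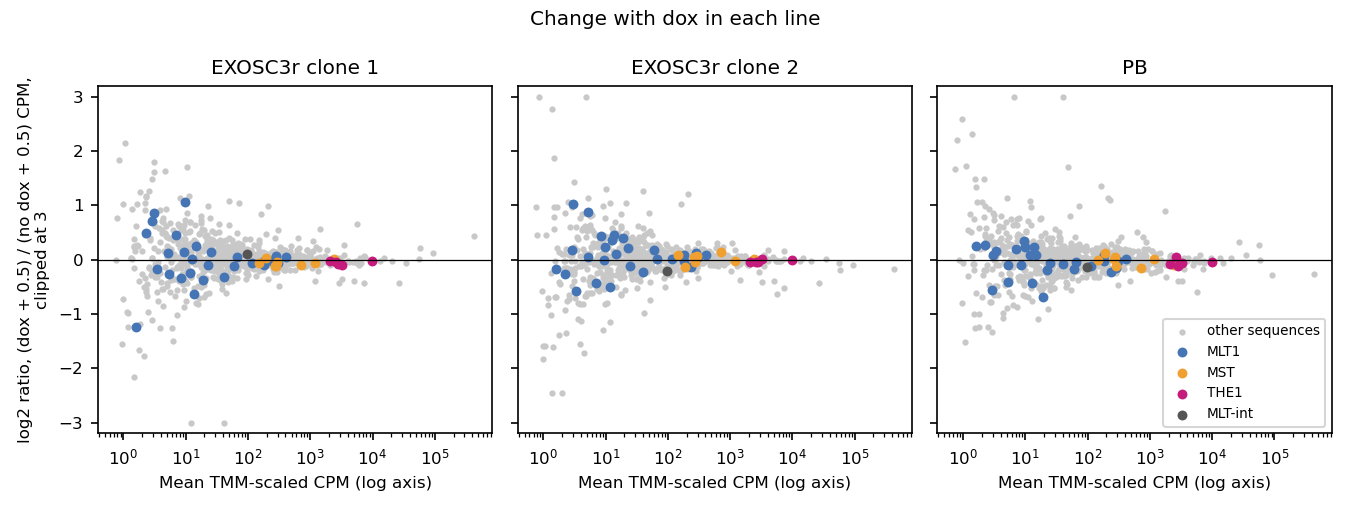
Log2 ratio of CPM with dox over CPM without (0.5 CPM added to both, clipped at 3) in each line against the mean CPM over the 6 libraries (log axis), with MaLR members coloured by family and all other tested sequences in grey. The MaLR members lie close to 0 above 100 CPM and spread more widely at lower CPM, among the grey points.

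The dox responses were then compared between EXOSC3r and PB cells. None of the 42 members passed in the edgeR interaction test, against 0% of all sequences in either direction. None had an unadjusted p under 0.05, against 1.29% of all sequences, and DESeq2 and limma called no member. The median difference, EXOSC3r minus PB response, was 0.07 on the log2 scale, with 27 members above and 15 below 0, and that of all sequences was 0.01. All comparisons with PB cells share the same PB libraries. THE1_I differed by 0.03 ± 0.13 (interval -0.28 to 0.35), MSTA by 0.11 ± 0.11 (-0.16 to 0.38) and MLT1B by 0.07 ± 0.11 (-0.2 to 0.34).

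The smallest p belonged to MLT1A1, whose response was 0.26 ± 0.145 larger in EXOSC3r cells (SE, edgeR adjusted p = 1.00). MLT1F differed by 0.76 ± 0.45, MLT1H by 0.67 ± 0.49 and MLT1H2 by 1.16 ± 0.78 on the log2 scale (edgeR adjusted p = 1.00 for each). MLT1H2 held 3.58 CPM with dox and 1.98 without in clone 1, 3.17 and 2.75 in clone 2, and 2.35 and 3.71 in PB cells, on 8.06 to 19.2 counts. MSTA2 held 194 and 189 CPM in clone 1, 180 and 199 in clone 2, and 205 and 188 in PB cells (difference -0.18 ± 0.144, edgeR adjusted p = 1.00). Its clones moved in opposite directions.

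Between EXOSC3r and PB cells with dox, no MaLR sequence passed (edgeR), against 0% of all sequences higher and 1.00% lower. One member had an unadjusted p under 0.05, which is 2.38% of the 42, against 7.58% of all sequences; DESeq2 called none, with 0 such members, and limma called none. The median log2 difference was 0.03 for the members and 0.01 for all sequences. The family medians were 0.12 for MLT1, -0.04 for MST and 0.00 for THE1. All 20 members above 100 CPM had intervals within 0.667-fold to 1.41-fold.

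Without dox, no MaLR sequence passed either (edgeR), against 0% of all sequences in each direction. Again 1 member, 2.38%, had an unadjusted p under 0.05, against 2.29% of all sequences, and DESeq2 and limma called none. The median log2 difference was -0.02 for the members, with 13 above and 29 below 0, and 0.01 for all sequences. The family medians were -0.05 for MLT1, -0.02 for MST and -0.02 for THE1.

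These differences are relative to the scaling. Against the summed ACTB and GAPDH counts, the MaLR total was 12.9% with dox and 14.8% without in clone 1, 22.0% and 20.1% in clone 2, and 26.9% and 24.8% in PB cells. With ACTB and GAPDH as the library size, the members' median EXOSC3r minus PB difference was -0.61 with dox and -0.51 without on the log2 scale, while the median of all sequences moved by -0.64 and -0.48. The MaLR members shifted with the bulk of the repeat sequences, and whether repeats or the reference transcripts differ between the lines cannot be told apart here.

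MLT1I, an old and weakly represented LTR, had the smallest p in both comparisons. It held 2.81 CPM with dox and 3.47 without in clone 1, 4.14 and 4 in clone 2, and 7.4 and 9.95 in PB cells, on 11 to 50.5 counts. The 4 EXOSC3r libraries all lay below both PB libraries. The log2 difference was -1.08 ± 0.44 with dox (edgeR adjusted p = 0.61, unadjusted 0.047) and -1.41 ± 0.42 without (adjusted p = 0.97, unadjusted 0.015), so that it did not pass. MLT1H1 lay on the other side, with 11.5 and 10.4 CPM in clone 1, 10.5 and 10.5 in clone 2, and 7.76 and 6.05 in PB cells (log2 0.50 ± 0.32 with dox, adjusted p = 0.80, and 0.79 ± 0.33 without, adjusted p = 0.97).

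Of the other members with the smallest p, MSTC held 267 CPM with dox and 274 without in clone 1, 298 and 283 in clone 2, and 300 and 324 in PB cells, with every EXOSC3r library below both PB libraries (log2 -0.22 ± 0.098 without dox, edgeR adjusted p = 0.97). MLT1E held 9.46 and 14.9 CPM in clone 1, 13.6 and 9.75 in clone 2, and 18.8 and 15.8 in PB cells (log2 -0.70 ± 0.36 with dox, edgeR adjusted p = 0.72). MLT1A1 had a log2 difference of 0.24 ± 0.103 with dox (edgeR adjusted p = 0.61), and MLT1E1A of -0.33 ± 0.175 (adjusted p = 0.74). MLT1F2 had one of 0.48 ± 0.31 without dox and MLT1G1 of 1.25 ± 0.84 (edgeR adjusted p = 0.97 for both). MLT1G1 held 0.767 and 2.48 CPM in clone 1, 1.95 and 2.25 in clone 2, and 1.26 and 0.976 in PB cells, on 3.08 to 10.1 counts, and its clone 1 libraries enclosed all the others.

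Over both dox states, 2 of 42 members (MLT1E2 and MLT1H1) lay higher in all 4 EXOSC3r libraries than in both PB libraries, against 11.6% of all sequences. In the other direction 6 (MLT1D, MLT1E, MLT1I, MLT1J, MSTC and MST_I, 14.3%) lay lower in all 4, against 10% of all sequences. The clones also differed from each other, with 7 members (16.7%) higher in both clone 1 libraries than in both of clone 2, against 24.0% of all sequences, and 9 (21.4%) lower, against 22.3%. MLT1D was among those 9, with 153 CPM with dox and 163 without in clone 1, 188 and 191 in clone 2, and 196 and 199 in PB cells, so that clone 2 lay nearer to PB cells than to clone 1. Its level differed by line more than by dox, and the comparison between single clones has no replicate.

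**Figure D5:**
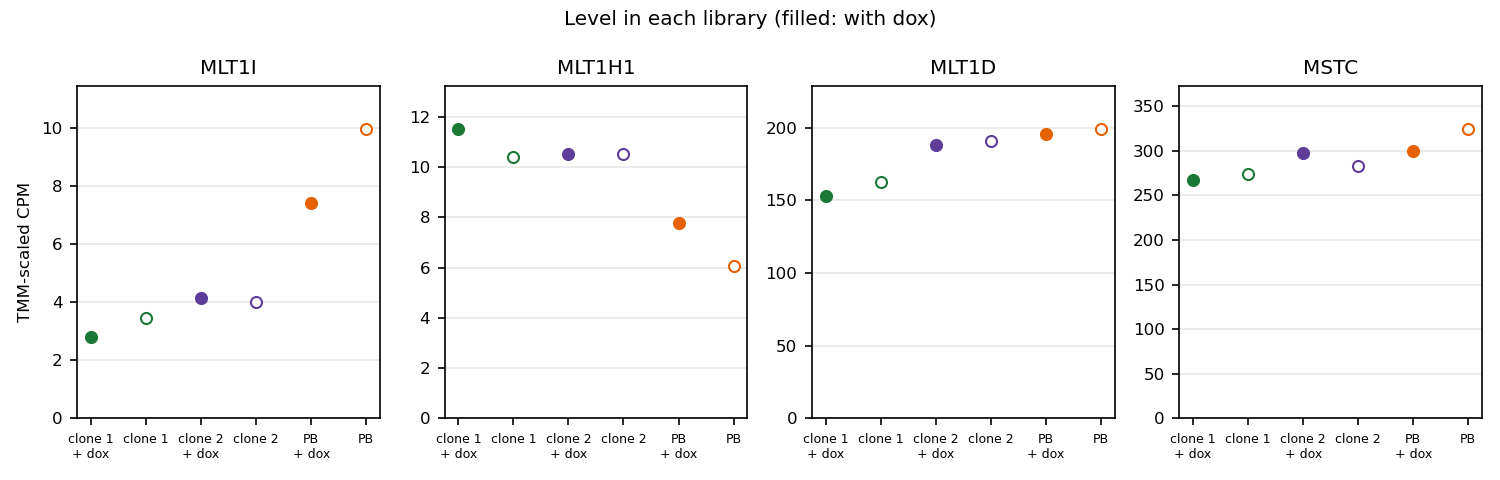
TMM-scaled CPM of MLT1I, MLT1H1, MLT1D and MSTC in each library, filled with dox and open without, with dox left of no dox and PB cells on the right. The 4 EXOSC3r libraries lie below both PB libraries for MLT1I, MLT1D and MSTC and above them for MLT1H1, and none of these differences passed the test.

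Across the 6 libraries the abundant members varied little. The median coefficient of variation of the 20 members above 100 CPM was 3.87%, with a range of 1.65% (THE1_I) to 10.5% (MLT1D), and that of all 253 sequences above 100 CPM was 5.95%, with a range of 1.65% to 54.6%. The median was 2.28% for the 5 THE1, 5.62% for the 8 MST and 5.96% for the 7 MLT1 members. None of these medians was matched for level. MSTA (2.31%), MST_I (2.88%) and MLT1B (2.61%) varied about as little as THE1B (2.59%) and THE1C (3.51%). MSTB, at a mean of 723 CPM, varied more (7.23%). The highest library exceeded the lowest by at most 1.09-fold among THE1 members and 1.3-fold among all 20. With TMM factors computed without the MaLR names the MaLR sums changed with dox by -0.04 in clone 1, -0.01 in clone 2 and -0.06 in PB cells on the log2 scale.

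ERVL elements are relatives whose internal part encodes their own enzymes. They were set beside the MaLR members as a list of names starting with HERVL, ERVL, MLT2, LTR16 or LTR33. The list includes LTR names, such as those starting with MLT2 or LTR16, and not only internal parts. Of these 35 names 21 were tested and none passed with dox in EXOSC3r cells (median log2 0.00) or in PB cells (-0.03), nor between the lines with dox (-0.01) or without (-0.10). Of 10 names starting with MIR, L2 or L3, old elements that are not retroviral, 7 were tested. None passed in any of these comparisons, with medians of 0.15, -0.06, 0.32 and 0.32 in the same order. Above 100 CPM, the 8 ERVL names had a median coefficient of variation of 4.95%, against 3.87% for the 20 MaLR members. The lists were not matched for level. Whether the MaLR members differ from either list was not tested.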

How the data were processed

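Per the labels' protocols, total RNA of each culture was stripped of ribosomal RNA and made into stranded libraries. The submitters' processing notes name bcl2fastq 2.17, Trimmomatic 0.36 and Salmon 0.13.0. The authors deposited, per the file headers, Salmon tables of estimated counts per sequence, not normalized, with lengths, effective lengths and TPM for 1045 repeat names, ACTB and GAPDH. The deposited TPM values are scaled for effective length and to a fixed sum over the sequences of a table. The sequence index and genome build are not given in the sources used here. Estimated counts divide reads between related names, and repeats inside gene transcripts also count.

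Estimated counts were rounded and fitted with edgeR 4.0.16 (R 4.3.3): TMM scaling, 4 group means over the 6 libraries, and the quasi-likelihood test, adjusted by the Benjamini-Hochberg method over the 699 sequences with at least 10 counts in at least 1 library. The 2 residual degrees of freedom come from the EXOSC3r clones, so p-values measure the spread between clones. The SE is the log2 change divided by the square root of F, and 95% intervals use the moderated degrees of freedom. Alternatives used DESeq2 1.42.0, limma 3.58.1 on log2(TPM + 1) or log2(TPM + 0.1), other scalings and filters, and each EXOSC3r library left out. The fit was tested on simulated data. Libraries of 1 line are paired by the labels, since a clone number marks the same line with and without dox. The main fit, with 4 group means, did not use this pairing. Of the fits, only the alternative with line as a block did. Over the 253 sequences of at least 100 CPM the clones' deviations in the 2 dox states correlated at 0.60. The value was 0.69 over the 20 MaLR members among them and 0.15 over all 699. No libraries agreed within sampling noise.

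Values in every library are given for internal names, for the 3 names of highest CPM in each family and for the 5 members of smallest p per comparison. The members and lists were chosen with earlier results of these data known.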

Additional observations from a re-analysis of the deposited data

Results flagged for a closer look

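Among the sums by family and part, the MST internal sum was the item that moved in opposite directions with dox in the 2 kinds of cells. It holds the single name MST_I. Its log2 ratio of CPM with dox over CPM without was -0.05 in clone 1 and -0.02 in clone 2 of EXOSC3r cells, and 0.02 in PB cells. The difference was not tested for this sum. Single members were not screened in this way, and some show the same sign pattern with larger changes. MLT1A1 had ratios of 0.08 in clone 1, 0.12 in clone 2 and -0.16 in PB cells. THE1D had -0.04, -0.04 and 0.05 in the same order. In the fit per sequence, the dox response of MST_I was -0.05 ± 0.108 in EXOSC3r minus PB cells on the log2 scale (SE, edgeR adjusted p = 1.00).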

How the results depend on the processing

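No MaLR member was called in any of the 5 comparisons under any of the 14 alternatives. The lowest edgeR adjusted p of a member was 0.11, for EXOSC3r minus PB cells with dox under the replicate block, and 0.37 without dox under the same fit. The replicate block, with line as the block and 1 residual degree of freedom, gave 0 calls among the members in each comparison. Over all sequences it called 9 for dox in EXOSC3r cells, against 1 in the main fit. Leaving out the EXOSC3r clone 2 library with dox brought the lowest adjusted p for dox in EXOSC3r cells to 0.55. Of 696 values of single members, 694 were rated unchanged. For the 5 members of smallest p in a comparison this required only the same sign and no call. MLT1K, for example, went from 0.73 to 0.30 for dox in EXOSC3r cells without the clone 1 library with dox. For other members it required a value within the SE of the main fit. A large shift in the median of all sequences was first subtracted, and a small one kept. MST_I moved to 0.11 for dox in PB cells with total counts, where a shift of 0.09 was kept. Between lines with dox it had -0.17 by limma on log2(TPM + 1), after a shift of -0.71 was subtracted.

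The members' median minus that of all sequences was -0.00 for dox in EXOSC3r cells, and -0.03 to 0.03 with a library left out. For the difference of dox responses it was 0.06, then 0.04 by limma on log2(TPM + 1) and 0.03 to 0.06 with a library left out. Between lines with dox it was 0.02, then -0.00 with no count filter, -0.01 with 10 counts required in all 6 libraries, -0.02 by limma on log2(TPM + 1) and 0.00 to 0.02 with a library left out. Without dox it was -0.04, and -0.06 by limma on log2(TPM + 1). With total counts the log2 dox ratio of the MaLR sum was -0.27 in clone 1, 0.11 in clone 2 and 0.04 in PB cells, and with ACTB and GAPDH as library size it was -0.20, 0.13 and 0.12; with DESeq2 size factors it was -0.07 in PB cells. LTR over internal ratios with full length were 4.62 for THE1, 14.1 for MST and 87.9 for MLT1 without MLT-int. The cause was not tested for the moved medians. TMM factors computed without the MaLR names, an alternative chosen after seeing the data, changed no call among the members. Low counts limit MLT1 names below 10 CPM, and PB cells have 1 library per arm.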
